A study of Mus musculus with 8 samples.

Results

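The ATF4 and amino acid stress response was followed through 10 genes, chosen by name for their roles in this pathway: Atf4, Atf5, Ddit3, Trib3, Asns, Chac1, Psat1, Phgdh, Shmt2 and Mthfd2. They are 10 of 22180 genes measured by probe sets with a single gene symbol, and each had 1 such probe set. The study measured RNA of heart samples from male C57Bl6N mice on Affymetrix arrays, 1 week after TAC (transverse aortic constriction), in which the aorta is tied narrower so that the heart pumps against a higher pressure. The groups were 4 samples of CITED4 knockout hearts (C4KO) and 4 of floxed control hearts (F/FCtr), whose Cited4 gene carries recombination sites. Each sample is called a heart here, but the sources used here do not state that each came from a separate animal, so the spread over n = 4 may be partly technical. Animals of both genotypes had TAC, so no unoperated heart was compared, and the sources used here name no ages and no Cre driver, and do not say if the control mice had a Cre transgene. CITED4 is a nuclear protein that works with the acetyltransferases CBP and p300 in gene regulation.

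ATF4 is a transcription factor of the integrated stress response. Kinases that sense amino acid shortage, unfolded protein in the endoplasmic reticulum (ER), haem deficiency or viral RNA phosphorylate the initiation factor eIF2, which lowers general translation but favours translation of Atf4 mRNA. ATF4 protein, with C/EBP partners, then raises genes of amino acid synthesis, amino acid uptake and tRNA charging. Because the control lies largely in translation, the level of Atf4 mRNA need not follow the amount of ATF4 protein. In heart muscle the response is known for following mitochondrial defects, with Atf5, Trib3, Asns and the mitochondrial folate enzyme gene Mthfd2 among the genes that it raises.

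All values are log2 signals as the authors deposited them, so a difference of 1 is a doubling, and they show what happens to a gene across hearts but not which gene is more abundant. Array medians lay between 4.29 and 4.33. Cited4 itself averaged 5.07 ± 0.19 in C4KO hearts and 5.98 ± 0.20 in F/FCtr hearts (SD, n = 4 each), and the groups did not overlap. On the linear scale its C4KO signal was 0.53 of the control signal. Cited4 had the smallest unadjusted limma p of all genes tested (2.19e-05). With a limma adjusted p of 0.277, even Cited4 did not pass the test between genotypes defined below. The 12 ventricular muscle markers all lay above the signal filter, and their summed linear signal ran from 40556 to 49074 in C4KO hearts and from 47612 to 50473 in F/FCtr hearts. C4KO replicate 2 stood apart with high atrial markers, whose mean deviation was 1.56 against -0.40 to 0.09 on the other arrays. Activated fibroblast markers also differed between hearts, with mean deviations of 1.09, 0.15, -0.37 and 0.98 in C4KO replicates 1 to 4 and 0.42, -0.87, -0.80 and -0.59 in F/FCtr replicates 1 to 4. In heart tissue of several cell types, fewer cells of a type and less RNA per cell cannot be told apart.

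None of the 10 genes passed the test between genotypes. A gene passed if its limma p, adjusted by Benjamini-Hochberg over the 15086 genes whose mean signal reached 3.80, was under 0.05. That was the case for 0 of the 9 pathway genes tested and for 0% of all genes tested (0 of 15086), also with limma's variances left unmoderated. At an unadjusted limma p under 0.05 there were 2 of the 9, Trib3 and Mthfd2, both with a lower mean in C4KO hearts, against 11.2% of all genes (5.61% lower and 5.64% higher). The C4KO and F/FCtr values overlapped for each of the 10 genes, and did not overlap for 5.23% of all genes tested (2.33% higher and 2.9% lower in C4KO hearts). Phgdh, with a mean of 3.70, lay under the signal filter and was not tested in that fit.

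**Figure D1:**
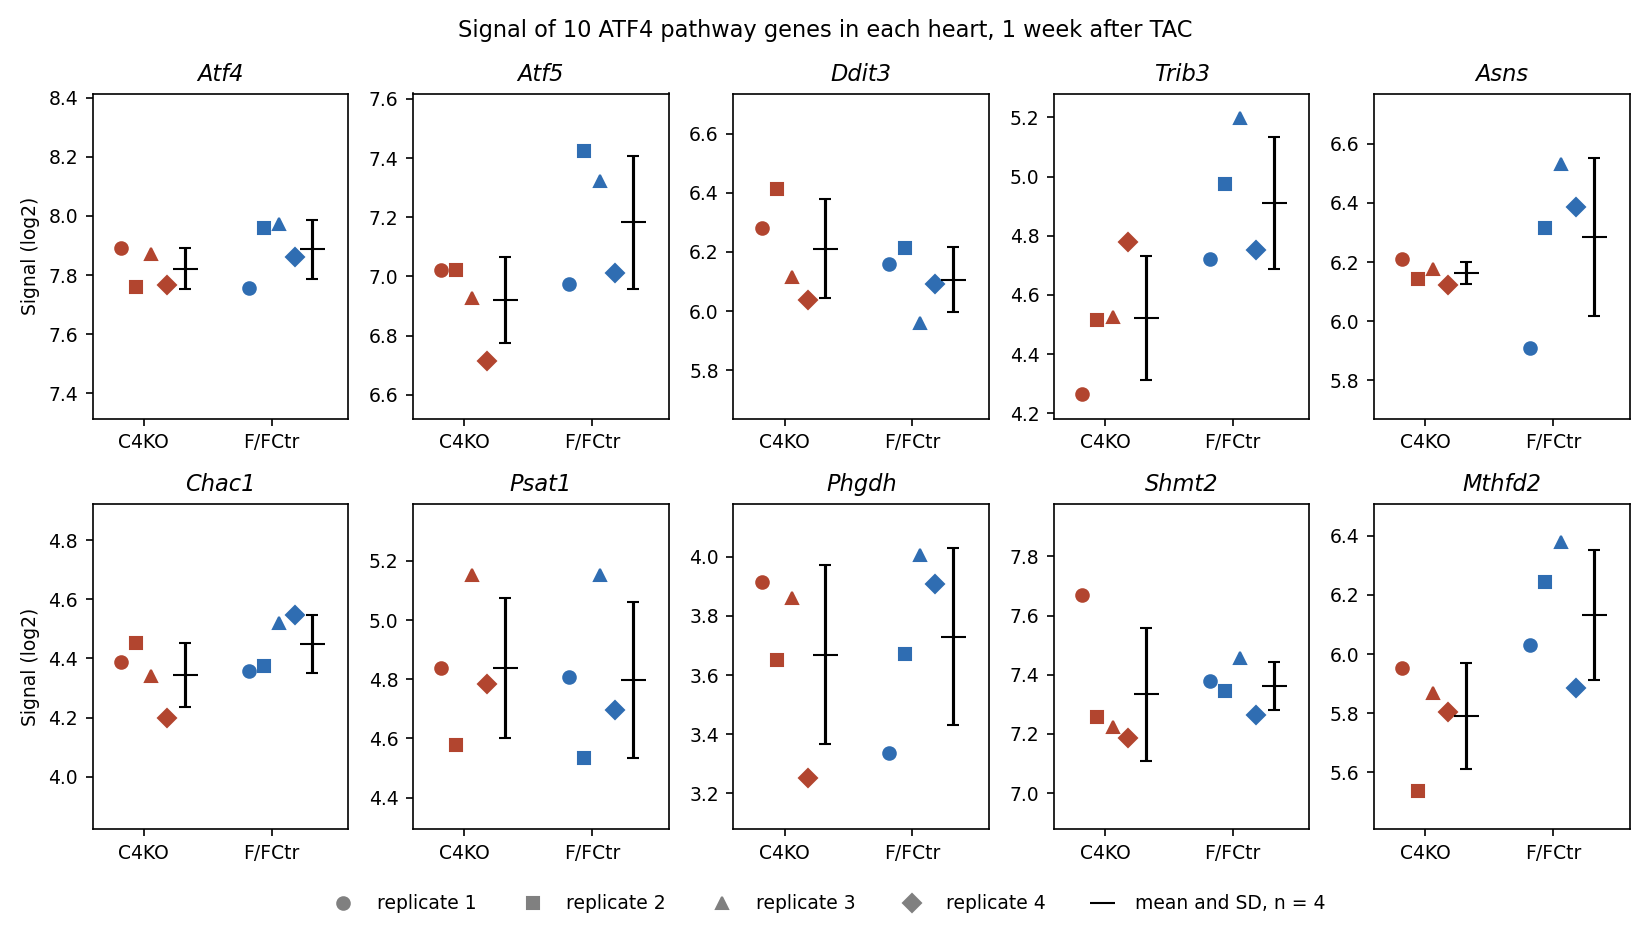
Signal (log2) of the 10 genes in each heart, with C4KO hearts on the left and F/FCtr hearts on the right of each panel; symbols mark the replicate, and the bar is the mean with its SD (n = 4). Every panel spans the same range of log2 units, and the groups overlap in each; Trib3 and Mthfd2 have the largest distances between group means, -0.39 and -0.34.

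The transcription factor genes come first. Atf4 (Entrez gene 11911), the effector of the response, had signals of 7.89, 7.76, 7.87 and 7.77 in C4KO hearts, against 7.76, 7.96, 7.97 and 7.86 in F/FCtr hearts. The control values enclosed all C4KO values, and Atf4 was among the steadier genes on these arrays: its pooled SD within groups lay at the 13.9th percentile of genes tested. The difference was -0.07 ± 0.08 (log2, C4KO minus F/FCtr, SE; 95% interval -0.24 to 0.11; limma adjusted p = 0.775), and it ran from -0.11 without F/FCtr replicate 1 to -0.04 without F/FCtr replicate 3. Signals of Atf5 (Entrez gene 107503), a close relative whose mRNA is also under translational control and which is linked to mitochondrial protein stress in mammals, were 7.02, 7.02, 6.93 and 6.71 in C4KO hearts, against 6.97, 7.42, 7.32 and 7.01 in F/FCtr hearts. F/FCtr replicates 2 and 3 lay above every C4KO heart, while replicates 1 and 4 lay among them. Atf5 averaged 83.4% of the control signal, a difference of -0.26 ± 0.12 (95% interval -0.53 to 0.01; limma adjusted p = 0.453; exact two-sided permutation p = 0.171).

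Ddit3 (Entrez gene 13198) encodes CHOP, a C/EBP-related factor associated with cell death in prolonged ER stress. Its signals were 6.28, 6.41, 6.12 and 6.04 in C4KO hearts, against 6.16, 6.21, 5.96 and 6.09 in F/FCtr hearts. The highest value was that of C4KO replicate 2 and the lowest that of F/FCtr replicate 3, with the remaining hearts intermingled. The difference was 0.11 ± 0.10 (95% interval -0.12 to 0.33; limma adjusted p = 0.703), and it was 0.04 without C4KO replicate 2 and 0.06 without F/FCtr replicate 3.

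Next come Trib3, Asns and Chac1, which are among the targets of ATF4 that act outside serine metabolism. Their promoters are shown because each holds the core of the C/EBP-ATF response element (CARE), the composite site to which ATF4 binds with a C/EBP partner. The search was for TGATGNAA on both strands, from 250 bases before to 50 bases after each RefSeq start site (build GRCm38.p6), with 12 such windows for the 10 genes. Of these windows 3 held the core, 1 for each of these genes, as did 3.97% of all 32851 windows. The 9-base form TGATGCAAT and the ER stress element (CCAAT and CCACG separated by 9 bases) were found in 0 of the 12 windows, and in 0.192% and 0.119% of all windows. Capitals mark the core. It reads forward in Asns and as its reverse complement in Trib3 and Chac1, and it begins 23 bases before the start site in Asns, 193 before it in Chac1 and at base 15 after it in Trib3. A match of letters is a description, not a measured binding site.
Trib3, chr2:152344031-152344180, minus strand: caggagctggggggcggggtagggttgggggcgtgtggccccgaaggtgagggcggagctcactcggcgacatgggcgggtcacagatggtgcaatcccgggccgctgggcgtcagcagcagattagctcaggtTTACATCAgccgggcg
Asns, chr6:7693180-7693329, minus strand: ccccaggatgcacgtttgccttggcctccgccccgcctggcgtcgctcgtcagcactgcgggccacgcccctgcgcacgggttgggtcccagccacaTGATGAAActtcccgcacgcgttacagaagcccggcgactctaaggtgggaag
Chac1, chr2:119350992-119351141, plus strand: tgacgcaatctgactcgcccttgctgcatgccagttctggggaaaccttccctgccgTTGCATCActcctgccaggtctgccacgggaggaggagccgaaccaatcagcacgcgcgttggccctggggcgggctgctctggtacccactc

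Trib3 (Entrez gene 228775) encodes a pseudokinase that binds ATF4 and CHOP and restrains AKT signalling. It had signals of 4.26, 4.52, 4.53 and 4.78 in C4KO hearts, against 4.72, 4.97, 5.20 and 4.75 in F/FCtr hearts. C4KO replicates 1 to 3 lay below all controls, and C4KO replicate 4 lay just above F/FCtr replicates 1 and 4. The signal was low: its mean over the 8 arrays, 4.72, lay under the 60th percentile of probe set means (4.89). So did those of Chac1 (4.40), Psat1 (4.82) and Phgdh (3.70). Trib3 averaged 4.52 ± 0.21 in C4KO hearts and 4.91 ± 0.22 in F/FCtr hearts (SD, n = 4 each), a difference of -0.39 ± 0.13 (SE; 95% interval -0.69 to -0.09), or 76.3% of the control signal. This was the widest difference among the 10 genes, with a limma adjusted p = 0.421 (unadjusted 0.0154) and an exact two-sided permutation p = 0.0857; 4 against 4 hearts allow none below 0.0286. Its paralogs Trib1 and Trib2 had differences of 0.07 ± 0.17 and 0.06 ± 0.10, with limma adjusted p of 0.899 and 0.851.

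Asns (Entrez gene 27053), asparagine synthetase, is a standard readout of the amino acid response. Its signals were 6.21, 6.14, 6.18 and 6.12 in C4KO hearts, against 5.91, 6.31, 6.53 and 6.39 in F/FCtr hearts. The C4KO hearts lay close together, with an SD of 0.04, and below F/FCtr replicates 2 to 4, while F/FCtr replicate 1 had the lowest value of all 8 hearts and the control SD was 0.27. The difference was -0.12 ± 0.12 (95% interval -0.39 to 0.15; limma adjusted p = 0.717), and it depended on single controls: it was -0.25 without F/FCtr replicate 1, the lowest (limma adjusted p = 0.275), and -0.04 without F/FCtr replicate 3, the highest (limma adjusted p = 0.942). Chac1 (Entrez gene 69065), which encodes an enzyme that degrades glutathione, had 4.39, 4.45, 4.34 and 4.20 in C4KO hearts, against 4.36, 4.37, 4.52 and 4.55 in F/FCtr hearts. F/FCtr replicates 3 and 4 lay above all C4KO hearts and C4KO replicates 3 and 4 below all controls. The Chac1 difference was -0.10 ± 0.08 (95% interval -0.29 to 0.08; limma adjusted p = 0.643), and -0.05 without C4KO replicates 1 and 4 and -0.06 without replicate 4 alone.

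The remaining genes make serine and carry its carbon into the folate pool. Phgdh (Entrez gene 236539), the first enzyme of serine synthesis from a glycolytic intermediate, had 3.92, 3.65, 3.86 and 3.25 in C4KO hearts, against 3.33, 3.67, 4.01 and 3.91 in F/FCtr hearts. The spread within each genotype (SD 0.30 in each) exceeded the difference of -0.06, and with no signal filter limma gave it an adjusted p of 0.938. Psat1 (Entrez gene 107272), the next enzyme of that path, had 4.84, 4.58, 5.15 and 4.79 in C4KO hearts, against 4.81, 4.53, 5.15 and 4.70 in F/FCtr hearts. The groups covered nearly the same range, with a difference of 0.04 ± 0.15 (95% interval -0.29 to 0.38; limma adjusted p = 0.932). Psph, which completes serine synthesis, likewise had a difference of 0.02 ± 0.12 (limma adjusted p = 0.958).

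In mitochondria, SHMT2 splits serine into glycine and a one-carbon unit, which MTHFD2 oxidises. Shmt2 (Entrez gene 108037) had 7.67, 7.26, 7.22 and 7.19 in C4KO hearts, against 7.38, 7.35, 7.46 and 7.27 in F/FCtr hearts. C4KO replicate 1 was the highest of all hearts and the other C4KO hearts were the lowest, so that the mean difference was -0.03 ± 0.11 (95% interval -0.28 to 0.22; limma adjusted p = 0.939). It was -0.14 without C4KO replicate 1. Signals of Mthfd2 (Entrez gene 17768), which is prominent in embryonic and dividing cells, were 5.95, 5.54, 5.87 and 5.80 in C4KO hearts, against 6.03, 6.24, 6.38 and 5.88 in F/FCtr hearts. F/FCtr replicates 1 to 3 lay above every C4KO heart, and F/FCtr replicate 4 lay below C4KO replicate 1 only.

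Mthfd2 averaged 5.79 ± 0.18 in C4KO hearts and 6.13 ± 0.22 in F/FCtr hearts (SD, n = 4 each). The difference was -0.34 ± 0.13 (SE; 95% interval -0.62 to -0.06), or 78.8% of the control signal, with a limma adjusted p = 0.421 (unadjusted 0.0213) and an exact two-sided permutation p = 0.0571. The cytosolic relative of SHMT2, Shmt1, and the MTHFD2 paralog gene Mthfd2l had differences of 0.05 ± 0.08 and 0.02 ± 0.10 (limma adjusted p = 0.826 and 0.96). The differences of the paralogs were not tested against those of Mthfd2 or Shmt2.

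**Figure D2:**
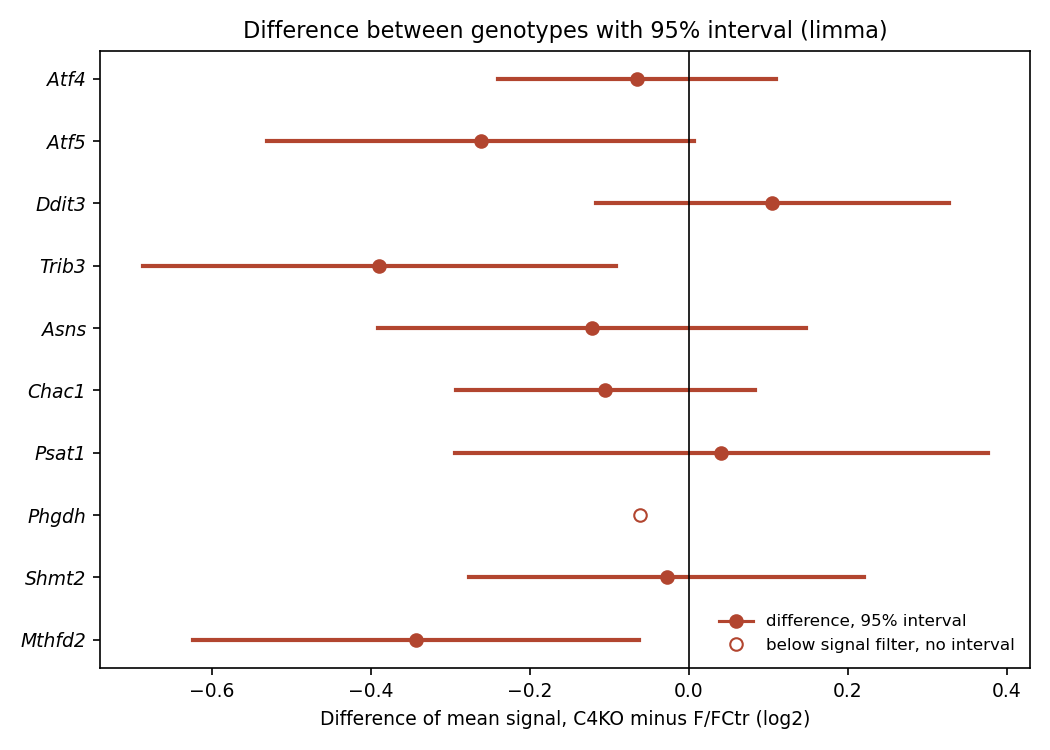
Difference of mean signal, C4KO minus F/FCtr (log2), for the 10 genes, with limma's 95% interval; the open circle is Phgdh, which lay under the signal filter and has no interval. The intervals of Trib3 (-0.69 to -0.09) and Mthfd2 (-0.62 to -0.06) lie below 0 before adjustment for 15086 genes, and the other 7 include 0.

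Over the 9 genes tested, 7 had a lower mean and 2 (Ddit3 and Psat1) a higher mean in C4KO hearts, with a median difference of -0.10. Over all genes tested 48.8% had a lower and 51.2% a higher mean, with a median of 0.00. The median of the 9 rested in part on single hearts: it was -0.04 without F/FCtr replicate 3 and -0.06 without C4KO replicate 4. F/FCtr replicate 3 had the highest value of all arrays in 5 of the 9 genes and lay above the gene's mean in 8 of them. C4KO replicate 4 had the lowest value in 3 genes and lay above the mean in 1. Without C4KO replicates 1 and 4, the hearts with the highest activated fibroblast markers, the Trib3 and Mthfd2 differences were -0.39 and -0.43. That of Atf5 was -0.21. This fit was chosen after seeing the data and keeps F/FCtr replicate 1, the control with the highest activated fibroblast markers. Without C4KO replicate 2 alone, the heart with high atrial markers, the Mthfd2 difference was -0.26. The ventricular muscle markers had lower means in C4KO hearts for 11 of 12 genes (median -0.19), and the activated fibroblast markers higher means for 10 of 10 (median 0.78), with summed linear signals of 4126 to 9288 in C4KO hearts and 2930 to 6028 in F/FCtr hearts. None of these markers lay under the signal filter. Resting fibroblast and macrophage markers had higher means in 6 of 8 and 8 of 10 genes, and endothelial and smooth muscle markers lower means in 6 of 8 and 5 of 8. The part of these cell types in the differences above was not tested.

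**Figure D3:**
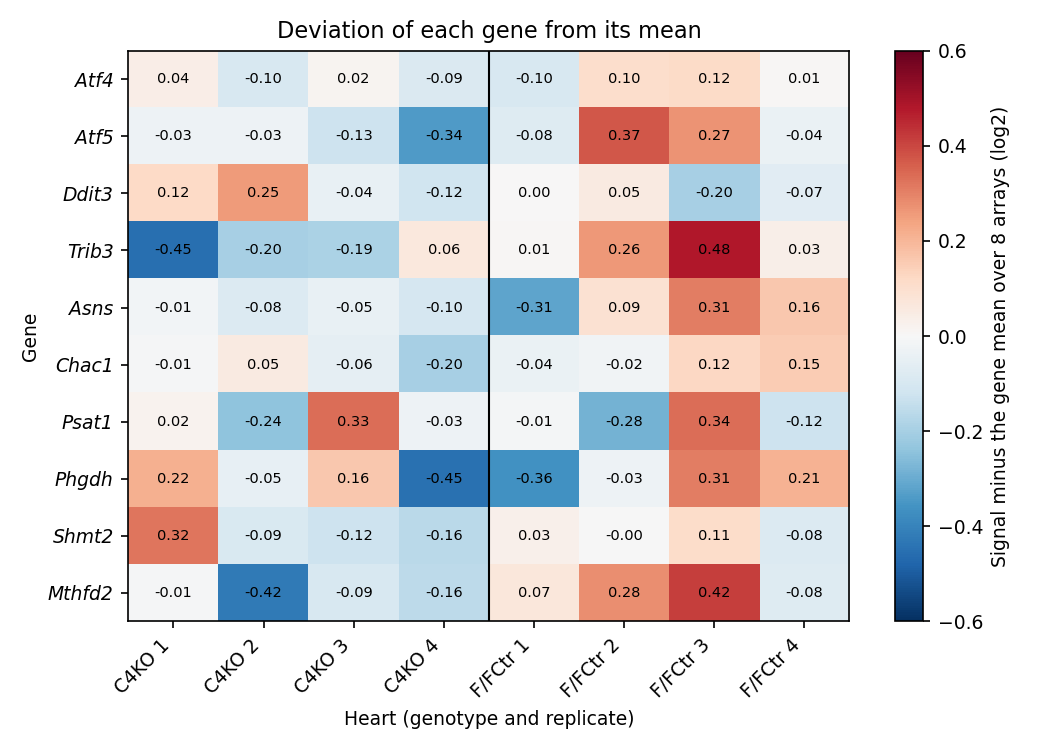
Deviation of each gene (rows) from its mean over the 8 arrays (log2), with the 4 C4KO hearts left of the line and the 4 F/FCtr hearts right of it. F/FCtr replicate 3 is above the mean in every gene except Ddit3, and C4KO replicate 4 is below it in every gene except Trib3.

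Signals of the 9 genes were also compared with each other from heart to heart, and no relation passed adjustment. Of 36 pairs among the 9 genes, 29 had a positive Pearson correlation over the 8 arrays (median 0.27, range -0.66 to 0.81). At an unadjusted exact permutation p under 0.05 there were 4 pairs, and after Benjamini-Hochberg adjustment over the 36 there were 0 (lowest adjusted exact p = 0.266). Atf4 with Asns had r = 0.81, with an exact permutation p of 0.0130 that became 0.266 on adjustment. Spearman's rho for this pair was 0.83 (p = 0.0154 by exact permutation, 0.518 adjusted). The pair's r was 0.78 after removal of the genotype means and 0.73 without C4KO replicate 2 and F/FCtr replicate 1, the arrays farthest from the median Atf4 signal.

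For Atf4 with Atf5, r was 0.79 (p = 0.0200 by exact permutation, 0.266 adjusted), 0.76 within genotypes and 0.96 without the same 2 arrays, and rho was 0.57 (p = 0.151 by exact permutation, 0.560 adjusted). For Atf4 with Mthfd2, r was 0.78 (p = 0.0221 by exact permutation, 0.266 adjusted), 0.76 within genotypes and 0.90 without them, and rho was 0.62 (p = 0.115 by exact permutation, 0.560 adjusted). The fourth pair, Atf5 with Mthfd2, had r = 0.72 (p = 0.0455 by exact permutation, 0.378 adjusted), 0.50 within genotypes and 0.70 without C4KO replicate 4 and F/FCtr replicate 2, and rho was 0.55 (p = 0.171 by exact permutation, 0.560 adjusted). Ddit3 ran the other way from Trib3, with the lowest r of the 36 (-0.66). The signals that followed Atf4 most closely among the 15077 other genes tested were those of Cdx4, Cpne6 and Cyp1a2 (Pearson r of 0.97, 0.97 and 0.96 over 8 arrays), and for Asns those of Tgm1, Npas1 and Gm7850 (0.95, 0.94 and 0.94). They were picked as the highest of all genes, so no test applies. Group means of Cdx4, Cyp1a2 and Npas1 were 3.91 to 4.14, under the array medians (4.29 to 4.33) and near the signal filter of 3.80. Those of Cpne6, Tgm1 and Gm7850 were 4.41 to 5.31.

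**Figure D4:**
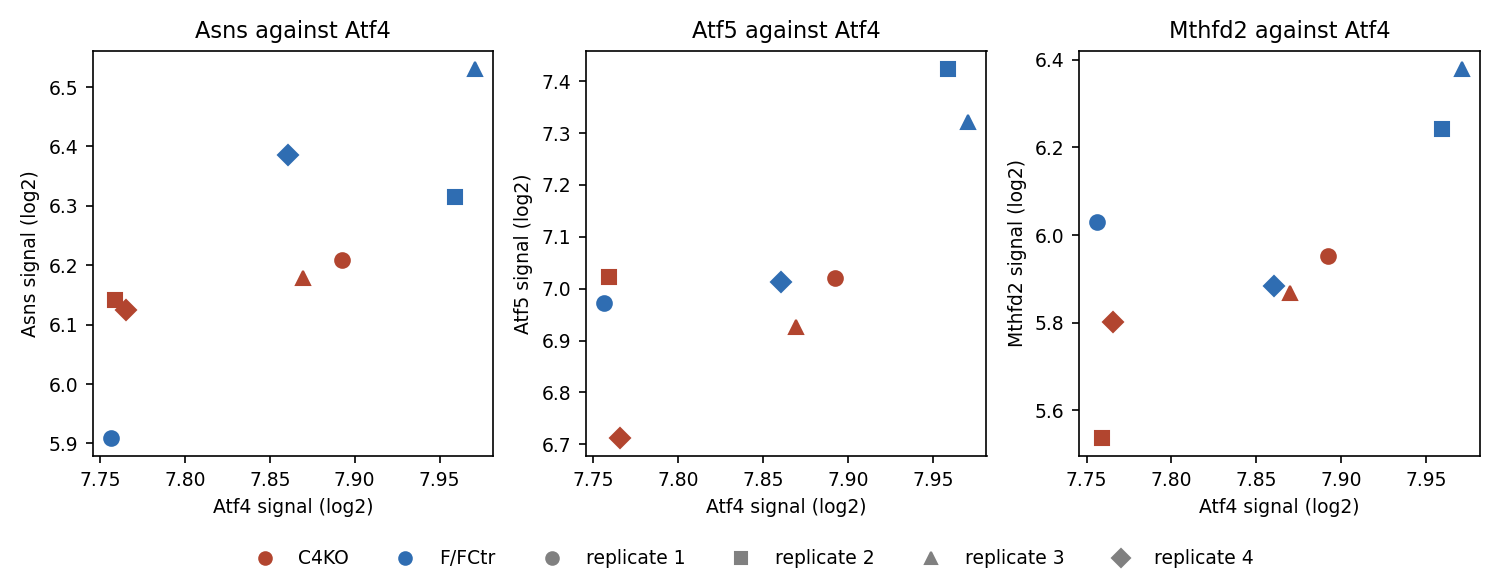
Signals (log2) of Asns, Atf5 and Mthfd2 on the vertical axes against that of Atf4 on the horizontal axis in 8 hearts, coloured by genotype, with symbols for the replicate. F/FCtr replicates 2 and 3 are highest in Atf4, Atf5 and Mthfd2, and Pearson's r is 0.81 for Asns, 0.79 for Atf5 and 0.78 for Mthfd2.

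Upstream of ATF4, the list held genes of the eIF2 kinases and their regulators, eIF2, its exchange factor eIF2B and its phosphatase, with Oma1 and Dele1. Their differences ran from -0.24 to 0.17. Of 16 tested, 5 had a higher and 11 a lower mean in C4KO hearts (median -0.04), and 0 passed. An unadjusted limma p under 0.05 was found for 2, Oma1 and Eif2b4, both lower, against 5.61% of all genes in that direction. The kinase genes Eif2ak1 to Eif2ak4 had differences of -0.09, 0.17, -0.01 and -0.04. Oma1 and Dele1 encode the protease and its substrate that carry mitochondrial stress to eIF2 signalling. Their differences were -0.21 ± 0.09 and -0.24 ± 0.13 (limma adjusted p = 0.444 and 0.497). Eif2b4, an eIF2B subunit, had a difference of -0.24 ± 0.10 (limma adjusted p = 0.444). Without C4KO replicates 1 and 4 the Dele1 difference was -0.03 and that of Eif2b4 -0.15, and Dele1 was at -0.14 without C4KO replicate 4 alone.

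Other stress-induced targets and partners of ATF4 did not share 1 direction. Of 18 tested, 11 had a higher and 7 a lower mean in C4KO hearts (median 0.06), and 0 passed. The 11 include Trib1 and Trib2, listed as paralogs of Trib3. Stc2, which encodes a secreted glycoprotein induced by ER stress, had 5.59, 5.48, 5.53 and 5.62 in C4KO hearts, against 5.23, 5.41, 5.15 and 5.21 in F/FCtr hearts. These groups did not overlap, and the difference was 0.30 ± 0.08 (limma adjusted p = 0.421). Ddit4, which encodes the mTORC1 inhibitor REDD1, had 6.40, 5.86, 6.33 and 6.32 in C4KO hearts, against 6.12, 5.14, 5.59 and 5.93 in F/FCtr hearts, a difference of 0.53 ± 0.20 (limma adjusted p = 0.421). Nupr1, a stress-induced chromatin protein gene, had a difference of 0.40 ± 0.18 (limma adjusted p = 0.445), and 0.13 without C4KO replicates 1 and 4. Cebpg, whose protein pairs with ATF4 and which was named after its values were seen, was the only list member with all C4KO values below all F/FCtr values, at a difference of -0.16 ± 0.08 (limma adjusted p = 0.461). Its nearest values in the 2 groups were both 7.01.

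Serine, glycine and folate enzymes beyond the 10 genes had higher means in C4KO hearts for 11 of 18 (median 0.03), and 0 passed. Mthfd1l makes formate in mitochondria downstream of MTHFD2. It had 4.67, 4.93, 4.93 and 4.87 in C4KO hearts, against 4.60, 4.48, 4.66 and 4.24 in F/FCtr hearts. The groups did not overlap, with a difference of 0.35 ± 0.11 (limma adjusted p = 0.421), opposite in sign to that of Mthfd2. Tyms, thymidylate synthase, and Ggh, which trims folate side chains, had differences of 0.33 ± 0.10 and 0.30 ± 0.13 (limma adjusted p = 0.421 and 0.438), and that of Ggh was 0.20 without C4KO replicates 1 and 4.

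Among genes of amino acid synthesis and transamination, 7 of 14 tested had a higher and 7 a lower mean (median -0.04), and 0 passed. Glul, glutamine synthetase, had 10.23, 10.06, 10.04 and 10.23 in C4KO hearts, against 9.88, 9.74, 9.87 and 9.73 in F/FCtr hearts. All C4KO hearts lay above all controls, with a difference of 0.33 ± 0.08 (limma adjusted p = 0.421). The exact two-sided permutation p was 0.0286, which any gene without overlap has at 4 against 4 hearts. Gpt2, the mitochondrial alanine transaminase and an ATF4 target, had a difference of -0.47 ± 0.18 (limma adjusted p = 0.421), and -0.22 without C4KO replicates 1 and 4. Cbs, which starts the conversion of homocysteine to cysteine, had a difference of -0.19 ± 0.09 (limma adjusted p = 0.444).

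Amino acid transporter genes had higher means in 11 of 18 cases (median 0.04), and 0 passed. At an unadjusted limma p under 0.05 there were 5, all higher, against 5.64% of all genes in that direction. The groups did not overlap for 1 gene with higher and 1 with lower values in C4KO hearts, against 2.33% and 2.9% of all genes. The lower gene was Slc7a6, named after its values were seen, with a difference of -0.18 ± 0.09 (limma adjusted p = 0.476). Slc1a4, a carrier of small neutral amino acids, had 5.49, 5.06, 5.18 and 5.42 in C4KO hearts, against 5.03, 4.83, 4.80 and 4.94 in F/FCtr hearts, a difference of 0.39 ± 0.11 without overlap (limma adjusted p = 0.421). Slc43a1, a carrier of large neutral amino acids, had a difference of 0.34 ± 0.11 and Slc7a2, a cationic amino acid carrier, one of 0.72 ± 0.30 (limma adjusted p = 0.421 and 0.431). Slc7a2 was at 6.45, 5.76, 5.21 and 6.48 in C4KO hearts, against 5.88, 4.85, 5.22 and 5.08 in F/FCtr hearts. C4KO replicates 1 and 4 were highest. Without these 2 hearts its difference was 0.23, and that of Slc1a4 was 0.22 and of Slc43a1 0.19. That fit was chosen after seeing the data and removes the highest Slc7a2 values. It keeps F/FCtr replicate 1, the control highest in Slc7a2 and in activated fibroblast markers, and the part of fibroblasts was not tested. The leucine carrier genes Slc7a5 and Slc3a2, also ATF4 targets and named after their values were seen, had differences of -0.02 ± 0.14 and -0.04 ± 0.10.

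Cytosolic aminoacyl-tRNA synthetases, many of which ATF4 raises, lay within a narrow band of -0.14 to 0.10. Of 18 tested, 8 had a higher and 10 a lower mean (median -0.02), and 0 passed. An unadjusted limma p under 0.05 was found for 0 of the 18, against 11.2% of all genes. Kars, Farsb and Eprs had the smallest p, with differences of -0.14 ± 0.09, -0.12 ± 0.09 and -0.09 ± 0.07 (limma adjusted p = 0.551, 0.610 and 0.636). Without C4KO replicates 1 and 4 they were -0.04, 0.00 and -0.11. Genes of glutathione synthesis and of the gamma-glutamyl cycle (its breakdown and renewal) likewise had 4 of 8 higher and 4 lower (median -0.02), and 0 passed. Gclm and Gss, which make glutathione, had differences of 0.15 ± 0.10 and 0.20 ± 0.15, and the CHAC1 paralog gene Chac2 had -0.21 ± 0.12 (limma adjusted p = 0.557, 0.622 and 0.524). Without C4KO replicates 1 and 4 these were 0.13, -0.01 and -0.05, and Chac2 was at -0.10 without C4KO replicate 4 alone.

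The ER and the mitochondrial genes of protein quality control had medians of opposite sign, a difference that was not tested. Of 21 ER stress sensors, chaperones and degradation genes, 16 had a higher and 5 a lower mean (median 0.09), and 0 passed. Unadjusted, limma p was under 0.05 for 3 higher and 1 lower, against 5.64% higher and 5.61% lower among all genes. For 1 gene, Atf6, the groups did not overlap, with lower values in C4KO hearts, against 2.9% of all genes. Manf, a secreted ER stress protein gene, had a difference of 0.27 ± 0.10 (limma adjusted p = 0.421), and 0.12 without C4KO replicates 1 and 4. Atf6 and Atf6b, related ER-anchored transcription factor genes, had -0.21 ± 0.09 and 0.25 ± 0.11 (limma adjusted p = 0.438 each), and Atf6 was at -0.12 without the same 2 hearts. The nearest Atf6 values of the groups were 9.40 in C4KO and 9.41 in F/FCtr hearts. Of 12 mitochondrial proteases and chaperones, 1 had a higher and 11 a lower mean (median -0.13), and 0 passed. At an unadjusted limma p under 0.05 there were 5 lower and 1 higher, against 5.61% lower and 5.64% higher among all genes. The groups did not overlap for 3 genes with lower and 1 with higher values in C4KO hearts, against 2.9% and 2.33% of all genes.

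Hspe1, the HSP10 co-chaperone of mitochondrial protein folding, had 7.01, 7.20, 7.02 and 6.94 in C4KO hearts, against 7.33, 7.55, 7.40 and 7.40 in F/FCtr hearts. Every C4KO heart lay below every control, with a difference of -0.38 ± 0.08 (limma adjusted p = 0.421; exact two-sided permutation p = 0.0286), and it was -0.31 without C4KO replicates 1 and 4. Clpp and Clpx, the subunits of a matrix protease, also did not overlap, with differences of -0.29 ± 0.09 and -0.23 ± 0.09 (limma adjusted p = 0.421 each). Htra2, an intermembrane space protease gene named after its values were seen, was the 1 member with a higher mean, at 0.26 ± 0.10 (limma adjusted p = 0.422). Its groups did not overlap (exact two-sided permutation p = 0.0286, the smallest that 4 against 4 hearts allow). The ventricular muscle markers, whose cells are rich in mitochondria, had a median of -0.19 on the same arrays, and their part in these values was not tested.

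**Figure D5:**
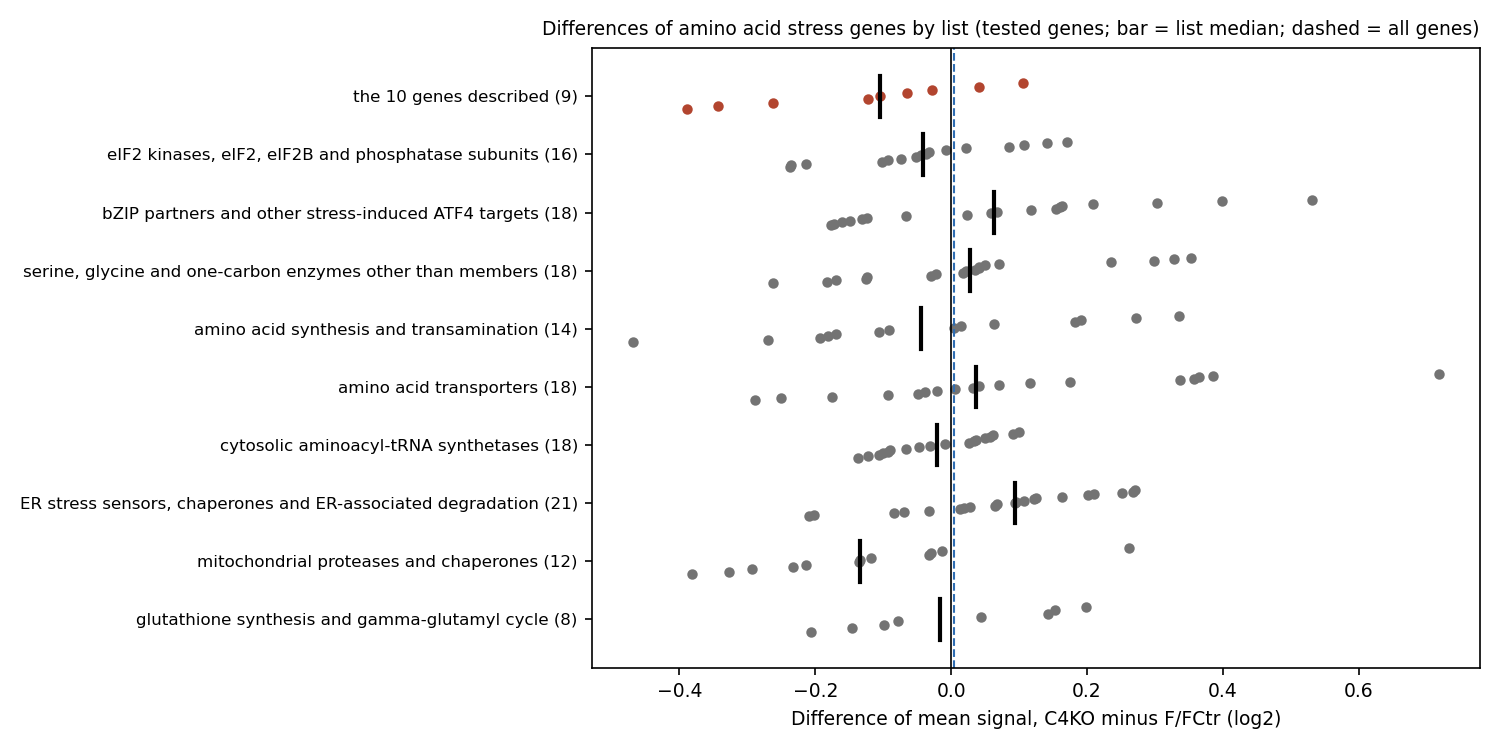
Difference of mean signal, C4KO minus F/FCtr (log2), of every tested gene of the 10 described (top row, 9 tested) and of 9 related lists, with the number tested in parentheses; black bars are list medians and the dashed line is the median of all genes tested (0.00). Medians run from -0.13 for mitochondrial proteases and chaperones to 0.09 for ER genes, and no point passed the test.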

How the data were processed

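RNA of 8 hearts, 4 CITED4 knockout and 4 floxed control, was grouped by the genotype in the labels. The deposited table holds log2 signals for 41345 probe sets. Per the submitters' processing notes, RMA and limma were used, with no version. RMA equalises the distributions of the arrays, which hides a change common to all genes. The sources used here name neither the genome build of the probes nor array batches. The p-values cover only the spread between these samples. With 8 arrays, their number limits precision. Of the probe sets 23521 had 1 gene symbol, 1814 several and 16010 none. Symbols were updated by Entrez identifier through RefSeq for 23328. The probe set with the highest mean stood for a gene. Genes at or above the 40th percentile of probe set means (3.80) were tested with limma 3.58.1 in R 4.3.3 (lmFit and eBayes), knockout minus control, with Benjamini-Hochberg adjustment. Single values also had an exact two-sided permutation test over 70 assignments. The limma step was tested on simulated data. Promoter sequences are those of RefSeq (GRCm38.p6) and matched all 10 genes.

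The 10 genes, the 9 related lists and the markers were chosen with earlier results of these data known. Named genes were the 10, Cited4, the 3 with the smallest p of each related list, paralogs of the 10 and the closest patterns to Atf4 and Asns. The eIF2 kinases and genes marked in the text as chosen with their values known fall outside this rule. Of the listed genes, 2 stand in a pair of lists (Oma1 and Nars). Deviations of same-numbered hearts from their group means had correlations of 0.36, 0.01, 0.28 and -0.03, against -0.47 to 0.26 for differently numbered hearts. Whether a replicate number marks a shared litter, batch or day is not stated in the sources used here and was not tested. Alternatives were no filter, the 60th percentile, quantile normalization, a shared array median, averaged probe sets, trend with robust estimation, unmoderated variances, array weights, a replicate block, a threshold of 0.1, and each array left out in turn. A fit lacking both knockout replicates 1 and 4 was chosen after seeing the data.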

Additional observations from a re-analysis of the deposited data

Results flagged for a closer look

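Shmt2 in knockout replicate 1 stood apart from the rest of its group. Its signal was 7.67 (log2), the nearest other knockout heart was at 7.26, and this gap made up 0.853 of the range of the 4 knockout hearts, above Dixon's critical value for 4 samples. Chance flags about 1 in 20 groups. The same heart had the lowest Trib3 signal (4.26) and the highest activated fibroblast deviation (1.09) of the 8, and no test linked these values.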

How the results depend on the processing

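The count past the threshold was 0 of the tested pathway genes and 0 of all genes under every alternative run, including the replicate block, where the number of all genes at an unadjusted p under 0.05 was 2177 against 1697 without it. Across alternatives these unadjusted counts ran from 617 (without knockout replicates 1 and 4) to 2390 (without knockout replicate 2). Trib3 had an unadjusted p under 0.05 in each setting except the 60th percentile filter, which removed it, and Mthfd2 lost it with unmoderated variances and without knockout replicate 2, control replicate 2 or control replicate 3. Atf5 gained it with trend and robust estimation, array weights, the replicate block and without control replicate 1 or 4, and Asns gained it without control replicate 1. The median difference was -0.14 to -0.04 when 1 array was left out. The number of pathway genes with a higher mean was 1 with the 60th percentile filter, under which 6 were tested, and 1 to 3 when 1 array was left out. With 1 array left out, signs turned for Psat1 (-0.063 to 0.16), Shmt2 (-0.14 to 0.021), Trib1 (-0.067 to 0.22), Trib2 (-0.0058 to 0.13), Mthfd2l (-0.073 to 0.053) and Psph (-0.065 to 0.10). Without knockout replicates 1 and 4 they turned for Psph (-0.037), Farsb (0.0030) and Gss (-0.0078). None of these values passed the test in any setting, and the cause was not tested.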

Other observations

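Of the other genes on the related lists, 3 lay under the signal filter and were not tested. Fgf21, a hormone gene that stressed mitochondria induce in muscle, averaged 3.68 ± 0.17 in knockout hearts and 3.50 ± 0.18 in control hearts (log2, SD, n = 4 each), with overlapping values. Slc7a11, the cystine carrier gene and an ATF4 target, averaged 2.20 ± 0.01 in knockout hearts and 2.21 ± 0.16 in control hearts. The third was Slc7a3, a cationic amino acid carrier gene.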
